A study of Saccharomyces cerevisiae with 8 samples.

Results

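A2 and A3 are 2 aneuploid strains of Saccharomyces cerevisiae (budding yeast whose number of chromosomes is abnormal), and their arrays are 2 of the 8 in the series. The arrays were chosen by their titles, A2 vs WT2 and A3 vs WT2. They are described as a pair because earlier results of these data showed the same chromosomes raised and many genes at similar ratios, since the labels do not say that the strains are related. The values that led to the pairing are therefore given as a description, with no test.

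Each array carried total RNA of a strain, labelled with Cy5, against RNA of a matched wild type, WT2, labelled with Cy3. The groups were A2, A3, the other aneuploid strains (A9, A10, A13, A14 and A15) and the wild type WT1, each on 1 array against WT2. All cells were in mid-log growth, and RNA came from an acid phenol preparation. The labels name no genotype, mating type or extra chromosome. Strain RNA was always in Cy5, so dye bias shared by the arrays remains in every ratio and cancels only in a difference from WT1. A2 and A3 share the WT2 RNA, so an error in it enters both.

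Of 6256 genes, each with 2 spots, 6001 were measured, which means well above background in either channel on both strain arrays. The arrays lay on 1 slide with 1 scan, A2 and A3 in its first row and WT1 in its second. Median red signals were 556 on A2, 802 on A3 and 687 on WT1, over a background of 36. The SD between the duplicate spots of a gene was 0.0699 to 0.0748 on the log2 scale over the 3 arrays. With 1 array per strain there is no replicate, and the number of arrays limits the precision. The log2 ratios over genes had an SD of 0.43 on A2, 0.41 on A3 and 0.16 on WT1, and the WT1 spread is the background against which the values below can be read.

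A cell with an extra copy of a chromosome carries an extra copy of each of its genes, and in yeast the transcripts of most such genes rise with the copy number. Aneuploid yeast strains are also known to share responses of genes on other chromosomes, among them genes of stress, growth and mitochondrial respiration, many of which follow the growth rate. For this reason each gene is given as its log2 ratio over WT2 and again relative to its chromosome, which is that ratio minus the median of the measured genes of its chromosome on the same array.

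Chromosomes II and XII were higher on both arrays. The 419 measured genes of chromosome II had a median log2 ratio of 0.67 in A2 and 0.73 in A3, against 0.00 in WT1. The 517 genes of chromosome XII stood at 0.60 in A2 and 0.51 in A3, against -0.01 in WT1. Relative to the chromosomes that were not shifted, chromosome II was 1.66-fold higher in A2 and 1.71-fold higher in A3, and chromosome XII 1.58-fold and 1.46-fold. The order of the pair of chromosomes was the same in both strains, with a wider gap in A3.

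The strains differed at chromosome I. Its median was 0.00 in A2 and 0.68 in A3, against -0.04 in WT1, which made it 1.65-fold higher than the unshifted chromosomes in A3. The other 13 chromosomes had medians between -0.09 and -0.02 in A2 and between -0.08 and -0.01 in A3, against -0.02 to 0.03 in WT1. Since the ratios are centred within each array, medians slightly below 0 accompany the raised chromosomes.

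**Figure D1:**
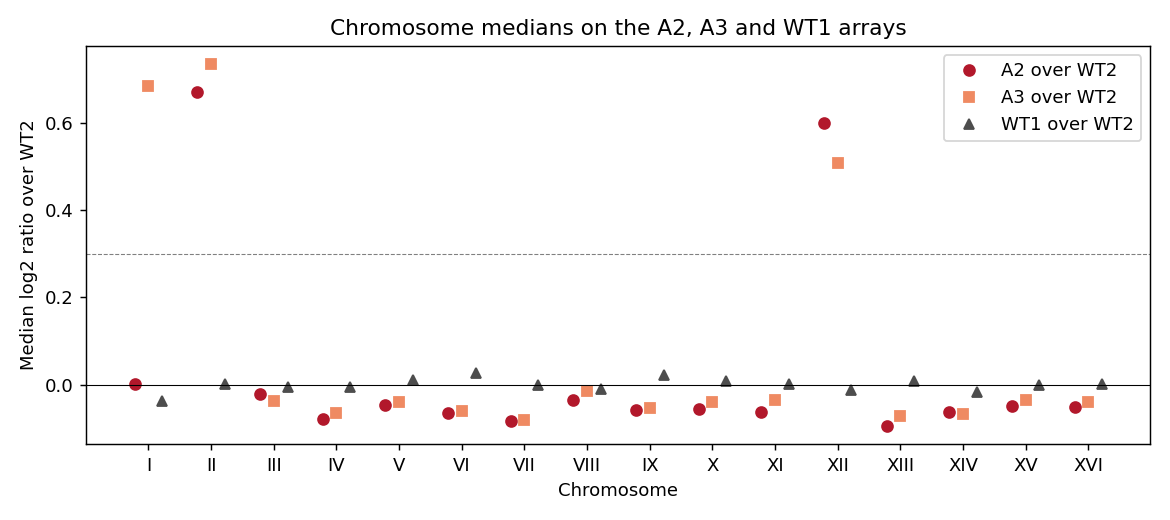
Median log2 ratio over WT2 (vertical axis) of the measured genes of each chromosome (horizontal axis) in A2 (circles), A3 (squares) and WT1 (triangles), with a dashed line at 0.3, the level from which a chromosome was called shifted. Chromosomes II and XII lie above it in both strains and chromosome I in A3 alone, while the WT1 medians stay within 0.04 of 0.

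The shift ran along the whole of both chromosomes. In 20 windows of 20 or more neighbouring genes on chromosome II, the medians lay between 0.38 and 0.89 in A2 and between 0.52 and 0.89 in A3, against -0.07 to 0.08 in WT1. In the 25 windows of chromosome XII they lay between 0.44 and 0.76 in A2 and between 0.37 and 0.68 in A3, against -0.12 to 0.06 in WT1. No window of either chromosome overlapped the WT1 range in either strain. On chromosome II the left and right arms had medians of 0.60 and 0.72 in A2 and of 0.71 and 0.75 in A3.

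**Figure D2:**
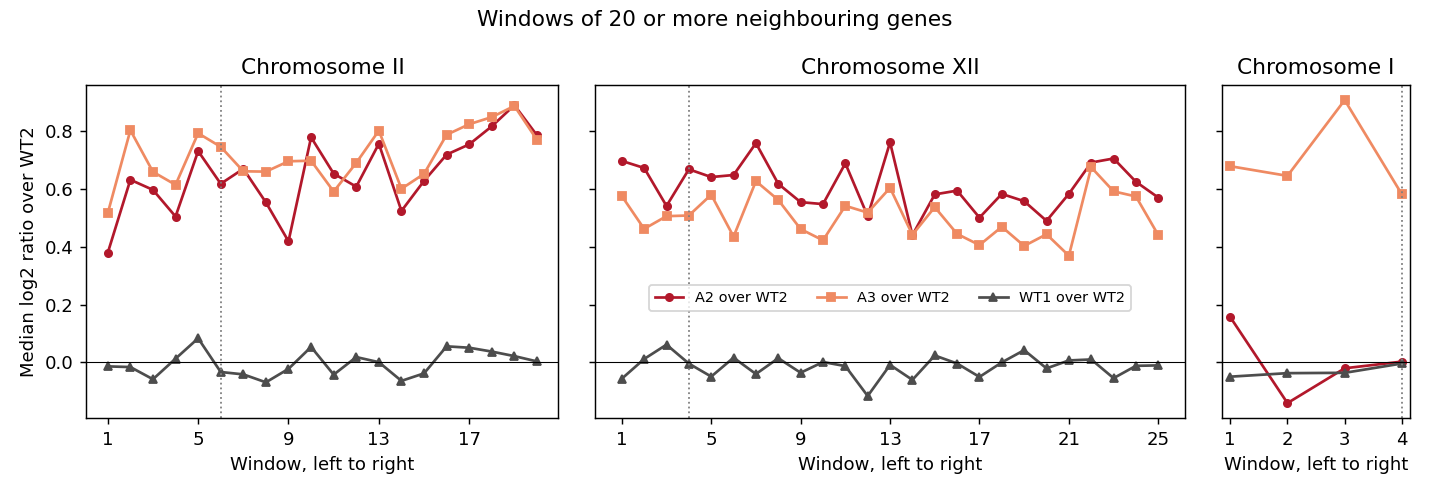
Median log2 ratio over WT2 (vertical axis) in windows of 20 or more neighbouring genes, in chromosome order from left to right (horizontal axis), for A2 (circles), A3 (squares) and WT1 (triangles); dotted lines mark windows that hold the centromere. Every window of chromosomes II and XII lies above the WT1 windows in both strains, and chromosome I does so in A3.

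Dim genes showed a smaller shift than bright ones. Among the third of chromosome II genes with the lowest signal, the median was 0.42 in A2 and 0.50 in A3, against 0.00 in WT1. The middle genes had medians of 0.79 in A2 and 0.80 in A3, and the brightest had 0.75 and 0.81. On chromosome XII the dimmest genes stood at 0.40 in A2 and 0.34 in A3, against 0.71 and 0.58 for the brightest. Ratios of dim genes on the raised chromosomes thus ran smaller.

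In the mean of A2 and A3, 122 of the 6001 genes (2.03%) had a log2 ratio of 1 or more, which is 2-fold, and 50 (0.833%) a ratio of -1 or less. In WT1 0 genes (0%) were that much higher and 1 (0.0167%) that much lower. Of the 122 higher genes, 78 lay on chromosome II and 37 on chromosome XII, or 94.3% on the shifted pair. Of the 50 lower genes, 48 lay on other chromosomes. Chromosomes II and XII held 936 of the 6001 measured genes. Their plain median was 0.62 in the mean of A2 and A3, so their genes started farther from -1. Just inside the limit for higher genes were FAT1, ARO4 and POP4, and just outside it GRC3, HSP150 and SEA4.

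Relative to their chromosomes, 9 genes (0.15%) reached 1 and 49 (0.817%) reached -1 in the mean, against 0% and 0.0167% in WT1. The list of lower genes thus stayed about as long, whereas the list of higher genes shortened once the chromosome medians were taken off. Of the 49 lower genes, 48 reached -1 on the A2 array, where 1.07% of all genes did, and 32 on the A3 array, where 0.617% did. Their median relative to the chromosome was -1.33 in A2 and -1.07 in A3, against -0.02 in WT1. The 49 were picked by the mean of A2 and A3, so low values on those arrays follow largely from the choice. WT1 took no part in it. In the other strains the same genes had medians of -0.19 in A9, 0.13 in A10, -0.06 in A13, 0.16 in A14 and -1.09 in A15. With the processed signals of the scanner software the counts were larger, at 263 higher and 119 lower plain and 64 higher and 114 lower relative to the chromosome. On A2 alone, 16 genes were 2-fold higher relative to their chromosomes. Just inside the limit for lower genes were AIM17, APE1 and HSP78, and just outside it STE2, EMI2 and GRX4.

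The strains differed little from each other away from chromosome I. The difference A3 minus A2 had an SD over genes of 0.20, or 0.17 without chromosome I. It passed 2-fold at 18 genes, of which 4 lay elsewhere than on chromosome I.

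RPS9A (YPL081W, chromosome XVI), which encodes a protein of the small ribosomal subunit, was the lowest gene relative to its chromosome. Its log2 ratio over WT2 was -2.44 in A2 and -2.58 in A3, against 0.04 in WT1. Its paralog RPS9B lies on chromosome II and stood at 0.07 in A2 and 0.27 in A3, against 0.08 in WT1, which is below the median of its chromosome. A second such pair was RPL8A and RPL8B, of the large subunit. RPL8A (YHL033C, chromosome VIII) had -1.61 in A2 and -1.37 in A3, against -0.09 in WT1. RPL8B, on chromosome XII, stood at 0.77 in A2 and 0.40 in A3. The copies of each pair are nearly identical in sequence, so a probe may read both, and the split between them is uncertain.

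Hexose transporters with high or intermediate affinity for glucose were among the lowest genes. HXT7 (YDR342C, chromosome IV) had a log2 ratio of -2.15 in A2 and -1.83 in A3, against 0.09 in WT1. Its neighbour and near-identical copy HXT6 had -2.04 in A2 and -1.62 in A3, against 0.10 in WT1, so the pair may be 1 signal. HXT4 (YHR092C, chromosome VIII) stood at -1.93 in A2 and -1.56 in A3, against -0.06 in WT1. HXT2 (YMR011W, chromosome XIII) stood at -0.98 in A2 and -1.01 in A3, against -0.09 in WT1. These carry glucose when it is scarce. HXT1, a low-affinity carrier used when glucose is plentiful, stood at -0.09 in A2 and -0.42 in A3, against -0.05 in WT1. Over the whole list of 22 transporters, glucose sensors and regulators the median relative to the chromosome was -0.05, with 5 members at or below -0.5 and 1 at or above 0.5, so the low values belong to a few members. Over all measured genes, 6.6% were at or below -0.5 and 3.55% at or above 0.5, against 0.0667% and 0.2% in WT1. These shares, relative to the chromosome, are the background for such counts in every list below.

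The other strains ranged widely at these transporters. HXT7 stood at 0.22 in A9, 2.87 in A10, 0.93 in A13, -0.57 in A14 and -1.49 in A15. HXK1 (YFR053C, chromosome VI), a hexokinase that is repressed by glucose, had -1.83 in A2 and -1.40 in A3, against -0.03 in WT1. It stood at 1.97 in A9, 3.55 in A10, 1.37 in A13, 0.33 in A14 and -1.33 in A15.

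Genes that only a cells use were lower on both arrays. The a-specific genes had a median relative to the chromosome of -0.99 in A2 and -0.98 in A3, against 0.08 in WT1, and all 7 lay below 0. Of the 7, 4 were at or below -0.5 and 3 at or below -1. ASG7 (YJL170C, chromosome X), a regulator of pheromone signalling, had -2.55 in A2 and -2.39 in A3, against 0.02 in WT1. MFA1, which encodes the mating pheromone a-factor, stood at -1.64 in A2 and -1.76 in A3, against 0.03 in WT1. BAR1, a protease that degrades the alpha-factor pheromone, stood at -1.48 in A2 and -1.46 in A3, against 0.14 in WT1. The receptor of that pheromone, STE2, was near -1 on both arrays, with -1.05 in A2 and -1.04 in A3, against 0.12 in WT1. The remaining members were nearer to 0, down to MFA2, a second a-factor gene, at -0.35 in A2 and -0.42 in A3, against -0.13 in WT1.

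In the other strains the same a-specific genes had medians of -4.29 in A9, -4.33 in A10, -0.17 in A13, 0.08 in A14 and -1.77 in A15. The alpha-specific genes had a median of 0.03 in A2 and -0.12 in A3, against 0.11 in WT1. Of the 6 measured, 1 was at or above 0.5 relative to its chromosome, AFB1 on chromosome XII, a blocker of a-factor. The haploid-specific genes had a median of -0.13 in A2 and -0.20 in A3, against 0.11 in WT1. In the mean, 2 of 12 were at or below -0.5, where 6.6% of all genes were. In RNA from a whole culture, fewer cells of a type and less RNA per cell cannot be told apart.

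Pheromone response genes were lower in part. Relative to the chromosome the 36 genes had a median of -0.18 in A2 and -0.21 in A3, against 0.13 in WT1, with 13 at or below -0.5 and 1 at or above 0.5 in the mean. The median of the mean was -0.16, and it was -0.28 with WT1 subtracted and -0.078 for genes well above background in both channels. FIG1 (YBR040W), a membrane protein of mating, lies on the raised chromosome II and yet had -1.35 in A2 and -1.60 in A3, against 0.18 in WT1. AGA1, which anchors a mating agglutinin in the wall, had -1.93 in A2 and -1.95 in A3, against 0.30 in WT1. FUS1, a cell fusion gene, had -1.44 in A2 and -1.64 in A3, against 0.36 in WT1. PRM1, also a fusion gene, had -1.29 in A2 and -1.36 in A3, against 0.03 in WT1. Others of the list were near or above 0. STE11, a kinase of the pathway on the raised chromosome XII, stood at 0.35 in A2 and 0.32 in A3 relative to its chromosome, against 0.03 in WT1. STE20, a kinase upstream of it on chromosome VIII, stood at 0.55 in A2 and 0.42 in A3 relative to its chromosome, and at 0.46 in WT1. PRM7, a pheromone-regulated gene that the list leaves out, went the other way. It was the highest of all measured genes relative to its chromosome, with 1.65 in A2 and 1.47 in A3, against 0.10 in WT1.

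**Figure D3:**
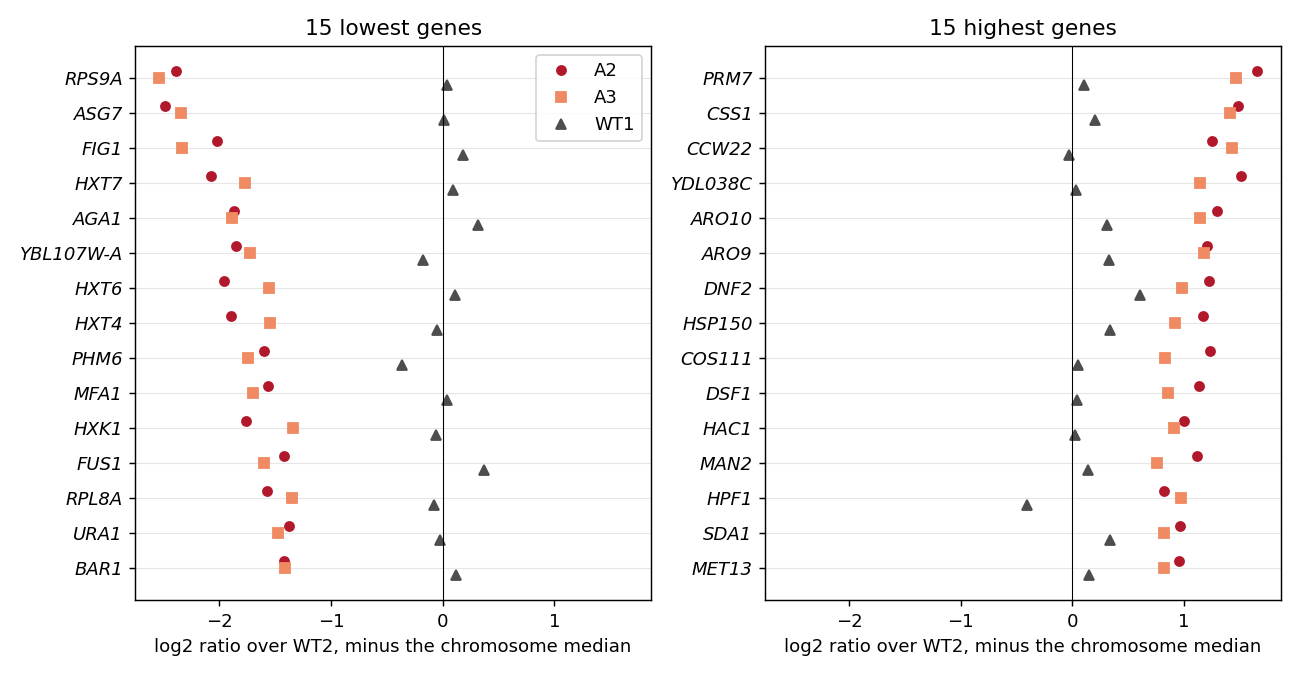
Log2 ratio over WT2 minus the median of the gene's chromosome (horizontal axis) for the 15 genes lowest (left) and highest (right) in the mean of A2 and A3, with A2 as circles, A3 as squares and WT1 as triangles. In each row A2 and A3 lie on the same side of 0, and WT1 lies nearer to 0 than both.

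Genes of mitochondrial respiration were lower across nearly the whole list. The list of nuclear respiratory chain genes also held the transcription factors HAP1 and HAP4. Its median relative to the chromosome was -0.67 in A2 and -0.58 in A3, against 0.01 in WT1. In the mean of A2 and A3 all 36 lay below 0, with 24 at or below -0.5. The 29 on unshifted chromosomes had plain log2 ratios between -1.36 and -0.27. CYT1, cytochrome c1 (chromosome XV), had -1.67 in A2 and -1.05 in A3, against 0.04 in WT1. COX4, a subunit of cytochrome c oxidase, had -1.26 in A2 and -0.78 in A3, against 0.07 in WT1. COX7, a further subunit of that enzyme, had -0.86 in A2 and -1.02 in A3, against 0.10 in WT1. The transcription factors HAP1 and HAP4, named after their values were seen, were nearest to the medians of their chromosomes. HAP1, on chromosome XII, had 0.60 in A2 and 0.47 in A3, against -0.01 in WT1. HAP4 had -0.32 in A2 and -0.21 in A3, against 0.11 in WT1.

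The 7 genes of the respiratory chain list on chromosomes II and XII, HAP1 among them, had a plain median of 0.14 in the mean of A2 and A3. All genes of those chromosomes stood at 0.70 and 0.55. In the other strains the list had medians of 0.37 in A9, 1.13 in A10, 0.13 in A13, 0.21 in A14 and -0.33 in A15. The tricarboxylic acid and glyoxylate cycle genes had a median of -0.18 in A2 and -0.10 in A3, against -0.04 in WT1, with 6 of 25 at or below -0.5 and 1 at or above 0.5. The lowest was MDH2, a malate dehydrogenase, with -1.30 in A2 and -0.96 in A3, against 0.17 in WT1. Subunits of succinate dehydrogenase, which also belongs to the respiratory chain, followed: SDH3 stood at -0.99 in A2 and -0.75 in A3, against -0.38 in WT1. The mitochondrial ribosome genes had a median of -0.34 in A2 and -0.27 in A3, against 0.00 in WT1, and 66 of 68 lay below 0. Their medians were 0.11 in A9, 0.28 in A10, 0.09 in A13, -0.03 in A14 and 0.16 in A15.

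Stress genes were lower as well. The general stress genes, which the cell induces under many stresses, had a median of -0.45 in A2 and -0.33 in A3, against 0.04 in WT1, with 23 of 59 at or below -0.5 and 0 at or above 0.5. GPD1, a glycerol synthesis enzyme (chromosome IV), had -1.38 in A2 and -1.03 in A3, against -0.04 in WT1. HSP78, a mitochondrial chaperone, had -1.19 in A2 and -0.98 in A3, against 0.34 in WT1. In the other strains the list had medians of 0.81 in A9, 1.45 in A10, 0.31 in A13, 0.32 in A14 and -0.34 in A15.

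The chaperones had a median relative to the chromosome of -0.14 in A2 and -0.23 in A3, against 0.12 in WT1. In the mean, 25 of 30 lay below 0, with 8 at or below -0.5 and 3 at or above 0.5. The low members included HSP42, a small heat shock protein, with -0.80 in A2 and -0.83 in A3, against 0.29 in WT1. The 3 high ones were the Hsp70 proteins SSB1, SSB2 and SSA2. SSB2, which works at the ribosome, stood at 0.62 in A2 and 0.61 in A3, against 0.07 in WT1.

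**Figure D4:**
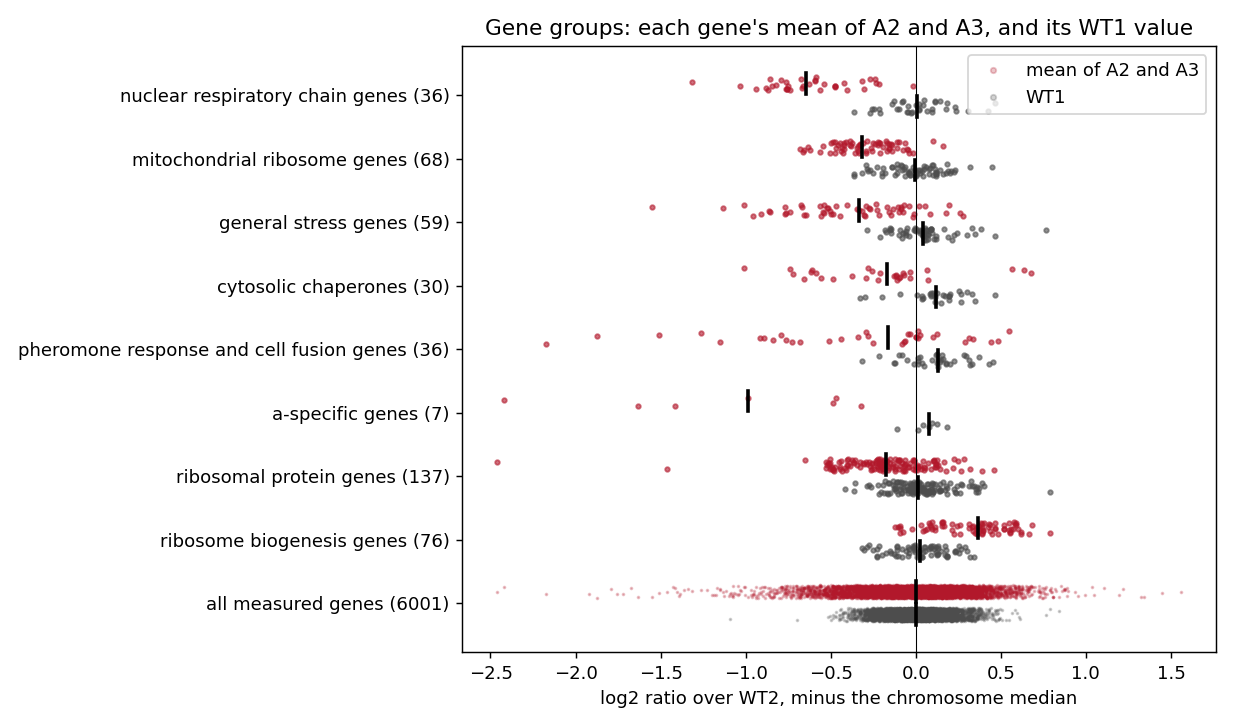
Log2 ratio over WT2 minus the chromosome median (horizontal axis) for each gene of 8 lists and for all measured genes (rows, with the number of genes), as the mean of A2 and A3 (red points) and in WT1 (grey points), with black bars at the medians. Respiratory chain genes lie at a median of -0.65 in the mean of the strains and ribosome biogenesis genes at 0.37.

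Ribosome biogenesis genes, which build ribosomal subunits, were higher on both arrays. Their median relative to the chromosome was 0.41 in A2 and 0.33 in A3, against 0.02 in WT1, with 19 of 76 at or above 0.5 and 0 at or below -0.5. DBP2, an RNA helicase (chromosome XIV), had 0.80 in A2 and 0.65 in A3, against -0.07 in WT1. The 63 on unshifted chromosomes had a plain median of 0.29 and the 12 on chromosomes II and XII 1.12. ENP1, a processing factor on chromosome II, had 1.42 in A2 and 1.22 in A3, against 0.00 in WT1. In the other strains the list had medians of -0.03 in A9, -0.38 in A10, 0.07 in A13, -0.17 in A14 and 0.25 in A15.

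Ribosomal protein genes did not share this direction. Their median was -0.11 in A2 and -0.24 in A3, against 0.01 in WT1, with 11 of 137 at or below -0.5 and 0 at or above 0.5, where 6.6% of all genes were that low. Histone genes had a median relative to the chromosome of -0.56 in A2 and -0.41 in A3, against -0.05 in WT1, with 5 of 10 at or below -0.5 in the mean. Of these 5, 3 (HHF1, HHT1 and HTA2) lie on the raised chromosome II with plain means between 0.08 and 0.16. The plain median of the list was -0.20 in A2 and 0.00 in A3, against -0.05 in WT1. On that scale 2 of 10 were at or below -0.5 in the mean, where 6.83% of all genes were. HTA1, a histone H2A gene, had -1.16 in A2 and -1.13 in A3, against -0.25 in WT1.

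**Figure D5:**
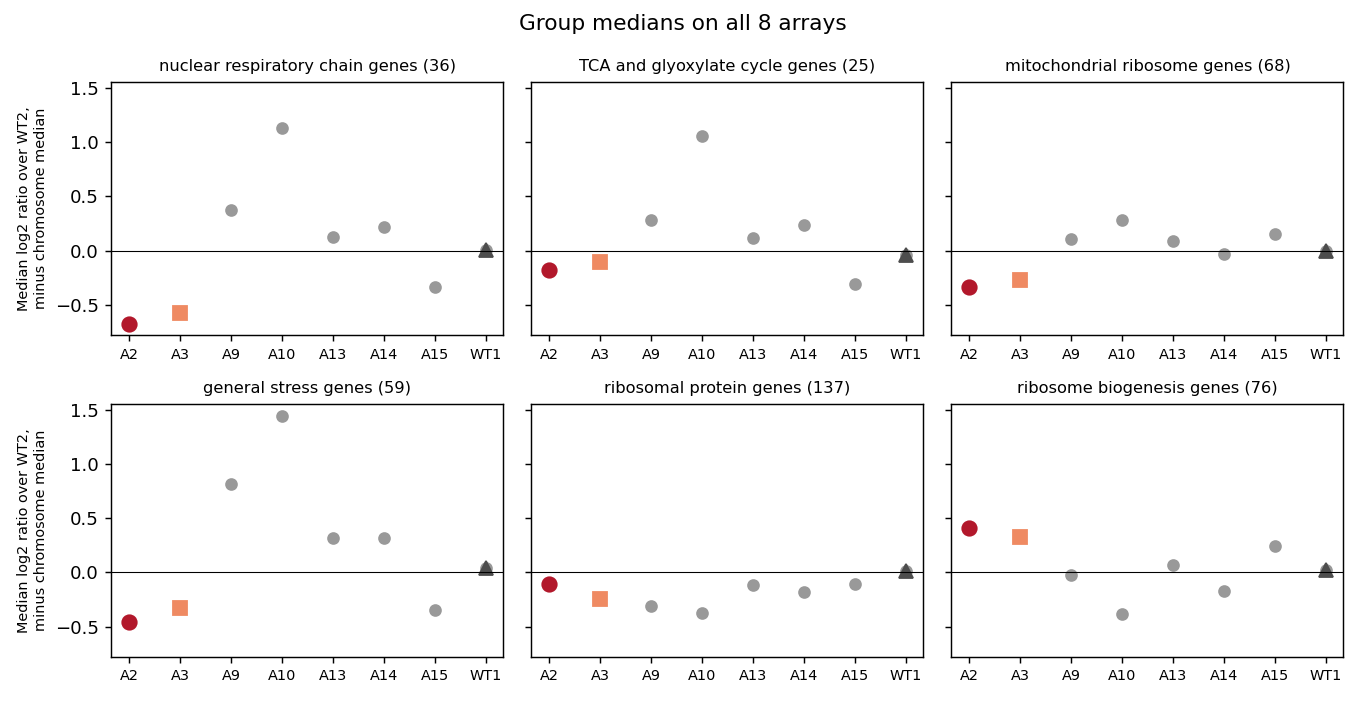
Median log2 ratio over WT2 minus the chromosome median (vertical axis) of 6 gene lists (panels, with the number of genes) on each of the 8 arrays (horizontal axis), with A2, A3 and WT1 in colour or dark and the other strains in grey. Respiratory chain and general stress genes are low in A2, A3 and A15, and ribosome biogenesis genes are high in the same 3 strains.

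The genes highest relative to their chromosomes were fewer, and WT1 was also raised at some of them. PRM7 (YDL039C, chromosome IV), a pheromone-regulated gene, had 1.58 in A2 and 1.40 in A3, against 0.09 in WT1. Its neighbour YDL038C had 1.43 in A2 and 1.08 in A3, against 0.03 in WT1. These neighbours were 1 of 3 adjacent pairs past 2-fold in the same direction, with HXT7 and HXT6 and with SYM1 and YLR252W. YDL038C and YLR252W have no entry in the R64 gene annotation, and HXT7 and HXT6 are near-identical copies. The members of each pair may therefore not be separate genes. CSS1 (YIL169C, chromosome IX), a cell surface protein gene, had 1.42 in A2 and 1.36 in A3, against 0.23 in WT1. CSS1 stood at 2.18 in A9, 5.07 in A10, 0.89 in A13, 2.07 in A14 and 2.27 in A15. CCW22 (YDR134C, chromosome IV), a copy of the wall protein gene CCW12, had 1.17 in A2 and 1.36 in A3, against -0.04 in WT1. CCW22 is annotated as a pseudogene. In the other strains it stood at 0.81 in A9, 1.36 in A10, 0.55 in A13, 1.01 in A14 and 0.45 in A15. Cell surface genes of this kind have repeats and near-identical copies, so their values may mix several genes.

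Genes of aromatic amino acid breakdown were also high, in a list chosen after its values were seen. ARO10 (YDR380W, chromosome IV), a decarboxylase, had 1.22 in A2 and 1.07 in A3, against 0.30 in WT1. ARO9 (YHR137W, chromosome VIII), an aminotransferase, had 1.17 in A2 and 1.17 in A3, against 0.32 in WT1. In A9, A10, A13 and A15 both stood at 0.89 or above, and in A14 at -1.44 and -1.39. DNF2 (YDR093W, chromosome IV), a phospholipid flippase, had 1.15 in A2 and 0.92 in A3, but 0.60 in WT1, so much of its value was also on the wild-type array. HAC1 (YFL031W, chromosome VI), the transcription factor of the unfolded protein response, had 0.93 in A2 and 0.85 in A3, against 0.05 in WT1.

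On the raised chromosomes, genes differed among themselves. The middle 50% of genes spanned 0.50 on chromosome II and 0.46 on chromosome XII relative to the chromosome median, against 0.31 to 0.39 on the unshifted chromosomes. Chromosome I, raised in A3 alone, spanned 0.46. Dim genes of chromosomes II and XII had smaller ratios, and their part in the wider span was not tested. The highest gene of chromosome II was COS111 (YBR203W), with 1.91 in A2 and 1.57 in A3, against 0.05 in WT1. MIS1, a mitochondrial folate enzyme, had 1.67 in A2 and 1.44 in A3, against 0.12 in WT1. PHO89 (YBR296C), a phosphate transporter, had 1.24 in A2 and 1.67 in A3, against -0.11 in WT1. NCW2 (YLR194C), a cell wall protein, and CTS1 (YLR286C), a chitinase of cell separation, led chromosome XII. NCW2 had 1.53 in A2 and 1.33 in A3, against -0.09 in WT1. CTS1 had 1.34 in A2 and 1.38 in A3, against 0.07 in WT1.

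Other genes of these chromosomes stood at or under the level of WT2. BNA5 (YLR231C, chromosome XII), an enzyme of NAD synthesis from tryptophan, had -0.42 in A2 and -0.82 in A3, against -0.22 in WT1. Its pathway partner BNA1 (chromosome X) had -1.51 in A2 and -1.38 in A3, against -0.06 in WT1. SYM1 (YLR251W), a mitochondrial membrane protein, had -0.61 in A2 and -0.44 in A3, against -0.12 in WT1. YPC1 (YBR183W, chromosome II), a ceramidase, differed between the strains, with -1.18 in A2 and -0.10 in A3, against -0.26 in WT1.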

How the data were processed

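RNA of each strain (Cy5) and of WT2 (Cy3) was hybridised to 2-colour Agilent arrays, and per the file headers the spots were read with Feature Extraction 10.5.1.1 of Agilent. The deposited median spot and background intensity of each channel was used as given by the authors, without normalization. The deposited files also hold background-subtracted, dye-normalized processed signal, and the log10 ratio of red over green, per the file headers. Values of the authors' deposited series table are log2 ratios that equal these log10 ratios, rescaled, within 5e-04, with a median of 0 on each array; the number of its columns that belong to no sample was 0. Here normexp with an offset of 50 corrected the background, and limma 3.58.1 (R 4.3.3) applied loess within each array. Weight 0 was given to 536 control spots, outlier-flagged spots were left out, saturated spots kept, and the 2 spots of each gene averaged. 

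Chromosomes came from ORF names. Of 6256 genes, 5756 were given symbols through an R64 gene table, and neighbours came from the order of the ORF names. The design's build is older than R64, so no coordinates are printed. The steps were tested on simulated data. No test was made: each strain has 1 array, and nothing says that samples are separate cultures. The members, the 33 lists written with the design and the naming rule were chosen with earlier results of these data known, and 4 further lists, and the genes described among the 276 the rule allows, after values were seen. The rule took the 15 lowest and 15 highest genes relative to the chromosome, the 8 lowest and 8 highest plain, the 6 lowest and highest on chromosomes II and XII, the 3 just inside and outside each limit, up to 6 members per list, all mating-type genes, and paralogs or neighbours. The patterns for ribosomal genes were corrected after the files were read. Alternatives are given under the processing heading.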

Additional observations from a re-analysis of the deposited data

How the results depend on the processing

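No paired analysis was possible because each group has 1 array and the labels give no replicate numbers. Neither the counts of genes past 2-fold nor the medians of chromosomes II and XII reversed. The pheromone response, general stress, respiratory chain and ribosome biogenesis medians did not reverse either. Some other list medians near 0 changed sign with 1 strain left out. The iron regulon stood at 0.03 in the mean, -0.17 with A2 alone and 0.09 with A3 alone. The phosphate list stood at 0.03, -0.01 and 0.02. With Agilent's processed signals 263 genes were past 2-fold higher and 119 lower, and relative to the chromosome 64 and 114, in place of 122, 50, 9 and 49; the deposited value table gave the same counts. Its chromosome medians were 0.83 for II and 0.66 for XII, with 0.78 for II under median centring. Relative counts of higher genes were 17 with a normexp offset of 16 and 7 to 16 with 1 strain left out. The pheromone response median was -0.19 with offset 16 and with median centring, -0.21 with the processed signals and the value table, -0.078 for genes well above background in both channels, -0.087 without a filter, -0.28 with WT1 subtracted, -0.27 without shifted chromosomes and -0.21 to -0.18 with 1 strain left out. The general stress median was -0.42 with the processed signals and the value table and -0.45 to -0.33 with 1 strain left out. The respiratory chain median was -0.74 with the processed signals and the value table and -0.67 to -0.58 with 1 strain left out. Ribosome biogenesis stood at 0.44 under median centring and 0.29 with WT1 subtracted. The causes were not tested. The 47 named genes past 2-fold kept their sign under each setting that gave them a value, which was 46 of them for the filter on both channels, while 36 stayed past 2-fold with WT1 subtracted, 42 under median centring and 33 with A3 alone. Dim genes of the raised chromosomes had smaller ratios with the normexp offset of 50. Whether the array or the offset made them smaller was not tested. MF(ALPHA)2 was not well above background in red.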

Other observations

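The cell wall integrity genes had a median relative to the chromosome of 0.19 in A2 and 0.18 in A3, against 0.01 in WT1, with 5 of 25 at or above 0.5 and 2 at or below -0.5. CHS3, a chitin synthase on chromosome II, had 1.36 in A2 and 1.38 in A3, against 0.13 in WT1, whereas CWP1, a wall mannoprotein on chromosome XI, had -1.84 in A2 and -1.03 in A3, against -0.17 in WT1. The seripauperin genes, near-identical genes near chromosome ends, had a median of 0.39 in A2 and 0.35 in A3, against -0.12 in WT1. Genes that peak at G2/M stood at 0.18 in A2 and 0.26 in A3, against 0.10 in WT1.

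Single members of further lists also had low or high values. ZRT1, a zinc transporter, had -1.17 in A2 and -1.08 in A3, against 0.08 in WT1. PHM6, a phosphate-responsive gene, had -1.68 in A2 and -1.81 in A3, against -0.37 in WT1. GCV1, of the glycine cleavage system, had -1.32 in A2 and -1.15 in A3, against -0.21 in WT1. ADE2, an enzyme of purine synthesis, had -0.90 in A2 and -0.75 in A3, against 0.16 in WT1. MET13, of methionine synthesis, had 0.87 in A2 and 0.74 in A3, against 0.15 in WT1. The iron regulon had a median relative to the chromosome of -0.17 in A2 and 0.09 in A3, against -0.07 in WT1. Several of its members were lower in A2 than in A3. ARN2, a transporter of iron chelates, had a log2 ratio of -0.85 in A2 and 0.00 in A3, against -0.32 in WT1. FIT3, a wall protein of iron uptake, had -0.78 in A2 and 0.06 in A3, against -0.24 in WT1. FRE1, an iron reductase on chromosome XII, had -0.64 in A2 and 0.15 in A3, against -0.11 in WT1. In these 3 genes WT1 lay between the strains.

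The lists of proteasome, amino acid synthesis, sulfur, ergosterol, G1/S, oxidative stress, multidrug resistance and kinetochore genes had medians relative to the chromosome between -0.07 and 0.06 in the mean of A2 and A3. Among them 0 of 33 proteasome genes and 0 of 31 cohesion and kinetochore genes were at or past 0.5 in either direction. In the mean of A2 and A3, further medians were -0.22 (purine synthesis), -0.14 (marker genes), -0.13 (glycolysis and fermentation), -0.13 (zinc and copper), 0.03 (iron), 0.03 (phosphate), 0.11 (cell separation), 0.14 (tRNA synthetases) and 0.21 (cell surface mannoproteins). Of the lists chosen after their values were seen, NAD synthesis stood at -0.40, glycine cleavage at -1.02, aromatic amino acid breakdown at 0.97 and mannitol and sorbitol dehydrogenases at 0.68.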
